A study of Bos taurus with 92 samples.

Results

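TFAP2A, MEIS2, TBX3, STAT3, KLF4 and SALL4 are transcription factors with known roles in the early cell lineages of the mammalian embryo, and their transcripts were measured in cow blastocysts, each analysed singly, and in donor cells. They were chosen with earlier results of these data known, as the genes of these symbols in the probe annotation. All 6 were among the 4398 genes tested of 4452 on the array. They were read by 11 probes, of which 10 had enough values to be tested. A blastocyst consists of an outer epithelium, the trophectoderm, which forms the placenta, and an inner cell mass, which forms the fetus and the yolk sac. TFAP2A belongs to the AP-2 family that drives trophoblast genes, while SALL4, KLF4, TBX3 and STAT3 are known mainly from mouse embryonic stem cells, where they sustain pluripotency. STAT3 does so as the messenger of the cytokine LIF. MEIS2 is a homeodomain protein that binds DNA together with HOX and PBX proteins.

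The samples were 15 blastocysts from nuclear transfer (NT, in which the nucleus of a somatic donor cell replaces that of the oocyte), 15 fertilised in vitro (IVF), 14 from artificial insemination (AI) and 2 samples labelled donor cells. Each sample was hybridised against a common reference RNA on 2 cDNA arrays with the dyes swapped. All samples had passed through 3 rounds of linear RNA amplification and the reference through 2. The labels give no breed, age, donor cell type or day of hybridisation, so that batch and kind of sample cannot be told apart. They also do not say which embryos shared parents, a donor cell line or a culture, and p-values measure the spread between these samples. All kinds shared a single estimate of that spread, which rests almost wholly on the embryos. The p-values against donor cells thus measure mainly the spread between embryos, and not that between the 2 donor cell samples. The series title names nuclear reprogramming as the subject.

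A level is the log2 ratio of sample to reference relative to the median spot of the array, so that levels of different genes cannot be compared. The labels do not state the direction of the ratio. It was read as Cy5 over Cy3, a direction that is likely but not settled, and the other direction would turn every sign and every order of kinds given here. Read as Cy5 over Cy3, 10 to 12 of 14 trophectoderm marker genes were higher in embryos than in donor cells and none lower, and 7 of 11 fibroblast marker genes were lower in embryos and 1 higher. The keratin genes KRT8 and KRT18, made by the trophectoderm epithelium, were higher in embryos by 5.42 to 5.77 and by 5.13 to 5.50 over the 3 kinds. The fibroblast collagen gene COL3A1 had differences of -6.13 in NT, -6.16 in IVF and -6.14 in AI embryos. The mean level of the trophectoderm markers ran from 0.867 to 2.19 in NT embryos, from 1.52 to 2.41 in IVF embryos and from 1.79 to 2.48 in AI embryos, against -0.65 and -0.44 in donor cells. In a whole blastocyst, fewer cells of a type and less RNA per cell cannot be told apart.

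TFAP2A was lowest in NT embryos, higher in IVF embryos, higher again in AI embryos and highest in donor cells. It ran from -2.18 to 0.56 in NT embryos with a median of -0.80, from -1.23 to 0.52 in IVF embryos with a median of -0.05, and from -0.56 to 1.53 in AI embryos with a median of 0.59. The donor cell samples had 2.20 and 1.54. The kinds of embryo overlapped, but 10 of 15 NT embryos lay below every AI embryo, and all embryos lay below both donor cell samples. In the plot of levels by kind the shift runs across the whole set of embryos and is not carried by a few.

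**Figure D1:**
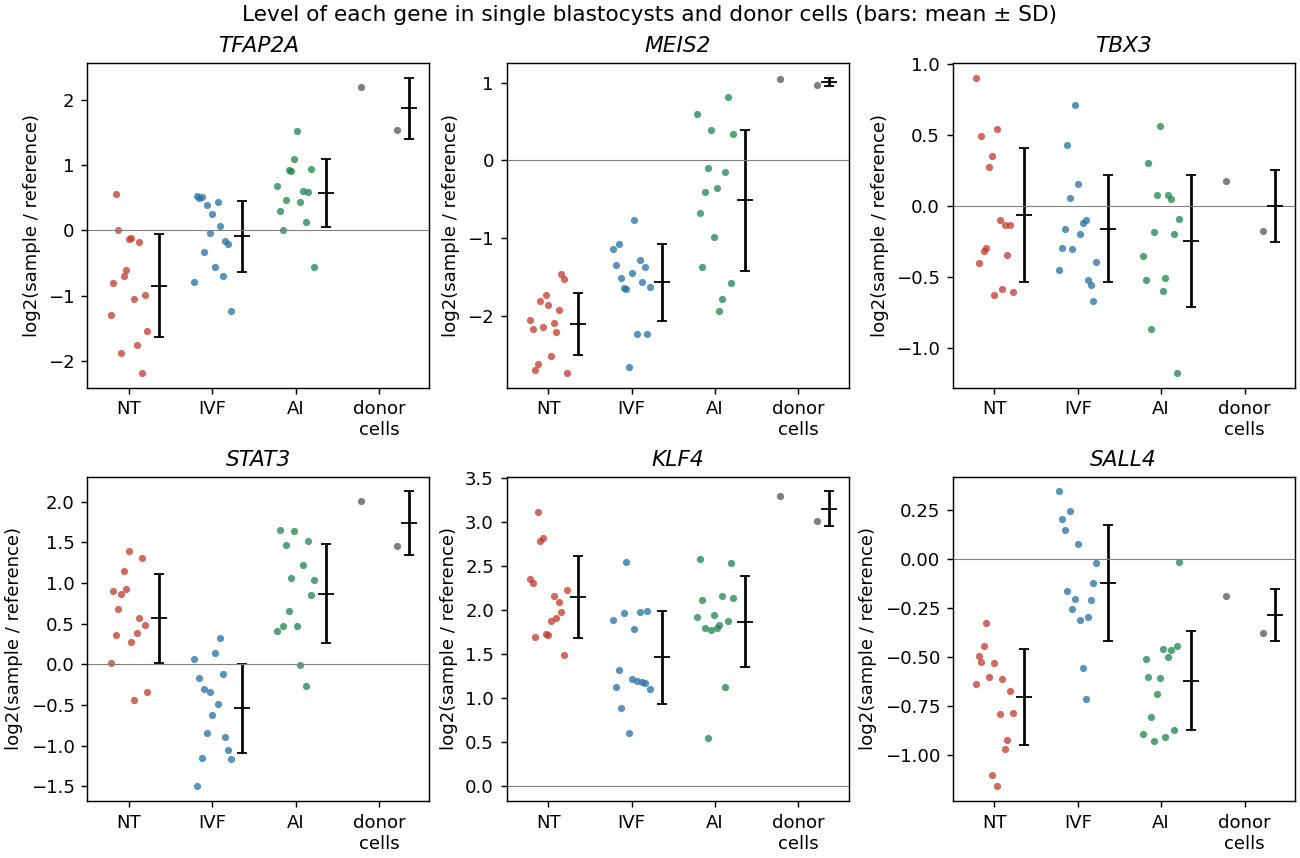
Level of each gene (log2 ratio of sample to reference, relative to the array median) in each NT, IVF and AI embryo and in both donor cell samples, with the mean ± SD beside the points. TFAP2A and MEIS2 are lowest in NT embryos, STAT3 is lowest in IVF embryos with a mean of -0.54, and SALL4 is highest in IVF embryos with a mean of -0.12.

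Against AI embryos, TFAP2A fell by 1.42 ± 0.23 in NT embryos (difference in log2 level ± SE, 15 against 14 embryos, limma adjusted p = 3.44e-05), which is 2.67-fold, and all 15 NT embryos were below the AI mean. Against IVF embryos it fell by 0.75 ± 0.22 in NT embryos (adjusted p = 0.00998), with 13 of 15 below the IVF mean. In IVF embryos it fell by 0.67 ± 0.23 against AI embryos (adjusted p = 0.0221). These comparisons share samples, as do all comparisons here that name the same kind. The last difference was uneven between the dyes: it was -1.02 on arrays with the sample in Cy5 and -0.31 with the sample in Cy3, where the adjusted p was 0.362. The difference between NT and IVF embryos was -0.51 (adjusted p = 0.157) when the 8 NT embryos whose labels begin with 2_ stood for NT, and -1.02 with the 7 labelled 3_. With the sample in Cy5 only it was -0.62 (adjusted p = 0.0542).

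TFAP2A differed from donor cells by -2.71 ± 0.46 in NT, -1.96 ± 0.46 in IVF and -1.29 ± 0.46 in AI embryos (adjusted p = 4.50e-06, 0.000615 and 0.0229). Only 2 donor cell samples stood on the other side, and their own 2 arrays correlated less well than those of embryos (r of -0.33 to -0.25 as deposited, against -0.76 to -0.55 in embryos, where a dye swap turns the sign). Leaving out donor cell sample 8 moved the AI difference to -0.96 (adjusted p = 0.299) and the IVF difference to -1.63 (adjusted p = 0.0566). Leaving out sample 9 moved the AI difference to -1.62 (adjusted p = 0.0548), and with the sample in Cy3 only it was -1.08 (adjusted p = 0.0810).

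These values come from 1 of the 2 TFAP2A probes, whose duplicate spots correlated with r = 0.97 over the arrays. The other probe had both spots on only 19 arrays, with r = 0.38, and was not tested. Where it could be read, it averaged -0.70 ± 0.63 in 10 NT, 0.58 ± 0.91 in 6 IVF and 0.03 ± 1.32 in 6 AI embryos (SD). NT was lowest on this probe too, but IVF embryos were not below AI embryos. The only donor cell sample read on it, sample 8, had -0.58, below the IVF and AI means. The place of donor cells above all embryos thus rests on the tested probe. With values from single arrays kept, so that this probe entered the mean, the difference was -1.06 between NT and AI embryos (adjusted p = 0.0365) and -0.06 between IVF and AI embryos (adjusted p = 0.923). With no filter on missing values the IVF and AI embryos differed by -0.31 (adjusted p = 0.278) and AI embryos and donor cells by -0.80 (adjusted p = 0.152).

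MEIS2, read by 1 probe (r = 0.64 between duplicate spots), followed the order of kinds of the tested TFAP2A probe. It ran from -2.74 to -1.46 in NT embryos with a median of -2.10, from -2.67 to -0.77 in IVF embryos with a median of -1.52, and from -1.94 to 0.82 in AI embryos with a median of -0.38. The donor cell samples had 1.05 and 0.98. All embryos were below both donor cell samples, and 9 of 15 NT embryos were below every AI embryo. The AI embryos were the most scattered, with an SD of 0.91, larger than that of 93.2% of all genes in AI embryos. Part of this scatter lay between arrays. AI embryo 15, the lowest of its kind, read -3.86 in Cy5 and -0.02 in Cy3, and AI embryo 13 read -2.265 and 0.28. Their low Cy5 readings enter the values by dye given below.

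MEIS2 fell by 1.59 ± 0.23 in NT against AI embryos (adjusted p = 6.93e-06), a 3.01-fold difference, and fell by 1.06 ± 0.23 in IVF against AI embryos (adjusted p = 0.000313). The difference between NT and IVF embryos was -0.53 ± 0.22, with a 95% interval from -0.98 to -0.09, and did not pass the test after adjustment (adjusted p = 0.0730). It did pass in a fit of these kinds alone (adjusted p = 0.0148), after quantile normalisation (-0.54, adjusted p = 0.0496) and with a common median absolute deviation (-0.56, adjusted p = 0.0384). It passed with the sample in Cy5 (-0.85, adjusted p = 0.0482) but not in Cy3 (-0.22, adjusted p = 0.566), and in 1 of 30 fits that each left out an embryo, the fit without IVF embryo 7 (-0.61, adjusted p = 0.0356). The dyes differed for this gene as well: between IVF and AI embryos the difference was -0.66 with the sample in Cy5 (adjusted p = 0.111) and -1.46 with the sample in Cy3 (adjusted p = 1.39e-05). Against donor cells MEIS2 differed by -3.12 ± 0.46 in NT, -2.59 ± 0.46 in IVF and -1.53 ± 0.46 in AI embryos (adjusted p = 2.49e-07, 1.01e-05 and 0.00654). The AI difference did not pass without donor cell sample 8 (adjusted p = 0.0795) or without sample 9 (adjusted p = 0.0658), nor in a fit of these kinds alone (adjusted p = 0.0588).

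Between NT and AI embryos TFAP2A and MEIS2 were thus 2 of 6 factors past the threshold, an adjusted p under 0.05, where 8.07% of all genes passed. Since the 6 were chosen with earlier results of these data known, such shares are descriptions and no independent test. STAT3 differed by -0.30 ± 0.20 (adjusted p = 0.392), KLF4 by 0.28 ± 0.18 (adjusted p = 0.357), SALL4 by -0.08 ± 0.10 (adjusted p = 0.679) and TBX3 by 0.18 ± 0.16 (adjusted p = 0.541). Their 95% intervals ran from -0.71 to 0.11, from -0.08 to 0.65, from -0.29 to 0.13 and from -0.14 to 0.50. Of 14 trophectoderm markers tested in NT against AI embryos 3 were lower and none higher. These were SSLP1 at -1.40 ± 0.36 and the pregnancy-associated glycoprotein genes PAG11 at -0.62 ± 0.20 and PAG8 at -0.39 ± 0.11. The other markers did not pass. Over all 14 the median difference was -0.37 and the highest 0.28, for GATA3. Whether these markers have a part in the fall of TFAP2A was not tested.

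STAT3, read by 1 probe (r = 0.96 between duplicate spots), was low in IVF embryos alone among the kinds of embryo. It ran from -0.43 to 1.40 in NT embryos with a median of 0.57, from -1.50 to 0.32 in IVF embryos with a median of -0.49, and from -0.27 to 1.65 in AI embryos with a median of 0.94. The donor cell samples had 2.01 and 1.45. Of 15 NT embryos 11 were above every IVF embryo, and of 15 IVF embryos 10 were below every AI embryo.

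In NT embryos STAT3 was higher than in IVF embryos by 1.11 ± 0.20 (adjusted p = 4.48e-05), or 2.16-fold. In IVF embryos it fell by 1.41 ± 0.20 against AI embryos (adjusted p = 8.12e-07), or 2.65-fold. Both differences were past the threshold with either dye alone. Against donor cells STAT3 differed by -1.16 ± 0.41 in NT and -2.27 ± 0.41 in IVF embryos (adjusted p = 0.0234 and 1.71e-05). In AI embryos the difference was -0.86 ± 0.42, with a 95% interval from -1.70 to -0.03, and did not pass after adjustment (adjusted p = 0.10). It passed after quantile normalisation (-1.03, adjusted p = 0.0489), with the sample in Cy5 (-1.26, adjusted p = 0.0361) and in a model of all arrays (adjusted p = 0.0323), and not with the sample in Cy3 (-0.46, adjusted p = 0.402). The NT difference was -0.89 without donor cell sample 8 and -1.44 without sample 9 and passed the threshold in neither case (adjusted p = 0.299 and 0.0612). With the sample in Cy3 it was -0.72 (adjusted p = 0.155).

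KLF4, a zinc finger factor of pluripotent and epithelial cells read by 1 probe (r = 0.96 between duplicate spots), was also lowest in IVF embryos. It ran from 1.49 to 3.11 in NT embryos with a median of 2.09, from 0.60 to 2.55 in IVF embryos with a median of 1.22, and from 0.55 to 2.59 in AI embryos with a median of 1.90. The donor cell samples had 3.29 and 3.01. Every NT embryo was above the IVF mean, although only 3 were above every IVF embryo.

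KLF4 was higher in NT than in IVF embryos by 0.69 ± 0.18 (adjusted p = 0.00343), or 1.61-fold. With only the NT embryos labelled 3_ it was 0.50 (adjusted p = 0.111). Between IVF and AI embryos the difference was -0.40 ± 0.18 with a 95% interval from -0.77 to -0.04 and missed the threshold (adjusted p = 0.0900), except without AI embryo 7 (-0.50, adjusted p = 0.0237) or without IVF embryo 6 (-0.48, adjusted p = 0.0357), and in a model of all arrays (adjusted p = 0.0420). Against donor cells KLF4 differed by -1.001 ± 0.37 in NT, -1.69 ± 0.37 in IVF and -1.28 ± 0.37 in AI embryos (adjusted p = 0.0293, 0.000265 and 0.00477). The NT difference did not pass without donor cell sample 8 (-0.86, adjusted p = 0.247) or sample 9 (-1.14, adjusted p = 0.105), and 1 NT embryo lay between the donor cell samples. Without sample 8 the AI difference was -1.15 (adjusted p = 0.0989). With the sample in Cy3 alone neither the NT difference (-0.75, adjusted p = 0.162) nor the AI difference (adjusted p = 0.0603) passed.

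SALL4, a zinc finger partner of the core pluripotency factors, ran the other way from STAT3 and KLF4. Among the kinds of embryo it was highest in IVF embryos. It ran from -1.16 to -0.32 in NT embryos with a median of -0.64, from -0.72 to 0.35 in IVF embryos with a median of -0.16, and from -0.93 to -0.02 in AI embryos with a median of -0.61. Of 15 NT embryos 6 were below every IVF embryo, and 14 of 15 IVF embryos were above the AI mean. SALL4 fell by 0.58 ± 0.10 in NT against IVF embryos (adjusted p = 2.79e-05) and was higher in IVF than in AI embryos by 0.50 ± 0.10 (adjusted p = 0.000247).

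Both SALL4 probes showed this pattern. The first probe averaged 1.09 ± 0.36 in NT, 1.75 ± 0.30 in IVF and 1.33 ± 0.27 in AI embryos, and the second -2.50 ± 0.34, -1.99 ± 0.37 and -2.57 ± 0.40 (SD). Tested probe by probe, NT minus IVF was -0.66 and -0.51 (adjusted p = 5.09e-05 and 0.00500) and IVF minus AI was 0.42 and 0.58 (adjusted p = 0.00763 and 0.00153). Among all probes 23% and 26.4% passed in these comparisons, and 7.48% between NT and AI embryos, where neither SALL4 probe did.

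Against donor cells the probes pointed in opposite directions. The donor cell samples had 0.69 and 0.76 on the first probe, where 13 of 15 NT, 15 of 15 IVF and 14 of 14 AI embryos were higher. They had -1.07 and -1.52 on the second, where all NT and AI embryos and 14 of 15 IVF embryos were below both. On the first probe the difference was 0.36 ± 0.25 for NT, 1.02 ± 0.25 for IVF and 0.60 ± 0.25 for AI embryos (adjusted p = 0.291, 0.000885 and 0.0542). On the second it was -1.21 ± 0.28, -0.70 ± 0.28 and -1.28 ± 0.28 (adjusted p = 0.000676, 0.0554 and 0.000333).

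The shares of all probes past the threshold were 31.4% for NT, 31.1% for IVF and 33% for AI embryos against donor cells. The mean of the SALL4 probes differed from donor cells by -0.42 in NT, 0.16 in IVF and -0.34 in AI embryos (lowest adjusted p = 0.120). It gives no direction for SALL4 between embryos and donor cells. The duplicate spots of the probes correlated with r = 0.86 and r = 0.67.

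**Figure D2:**
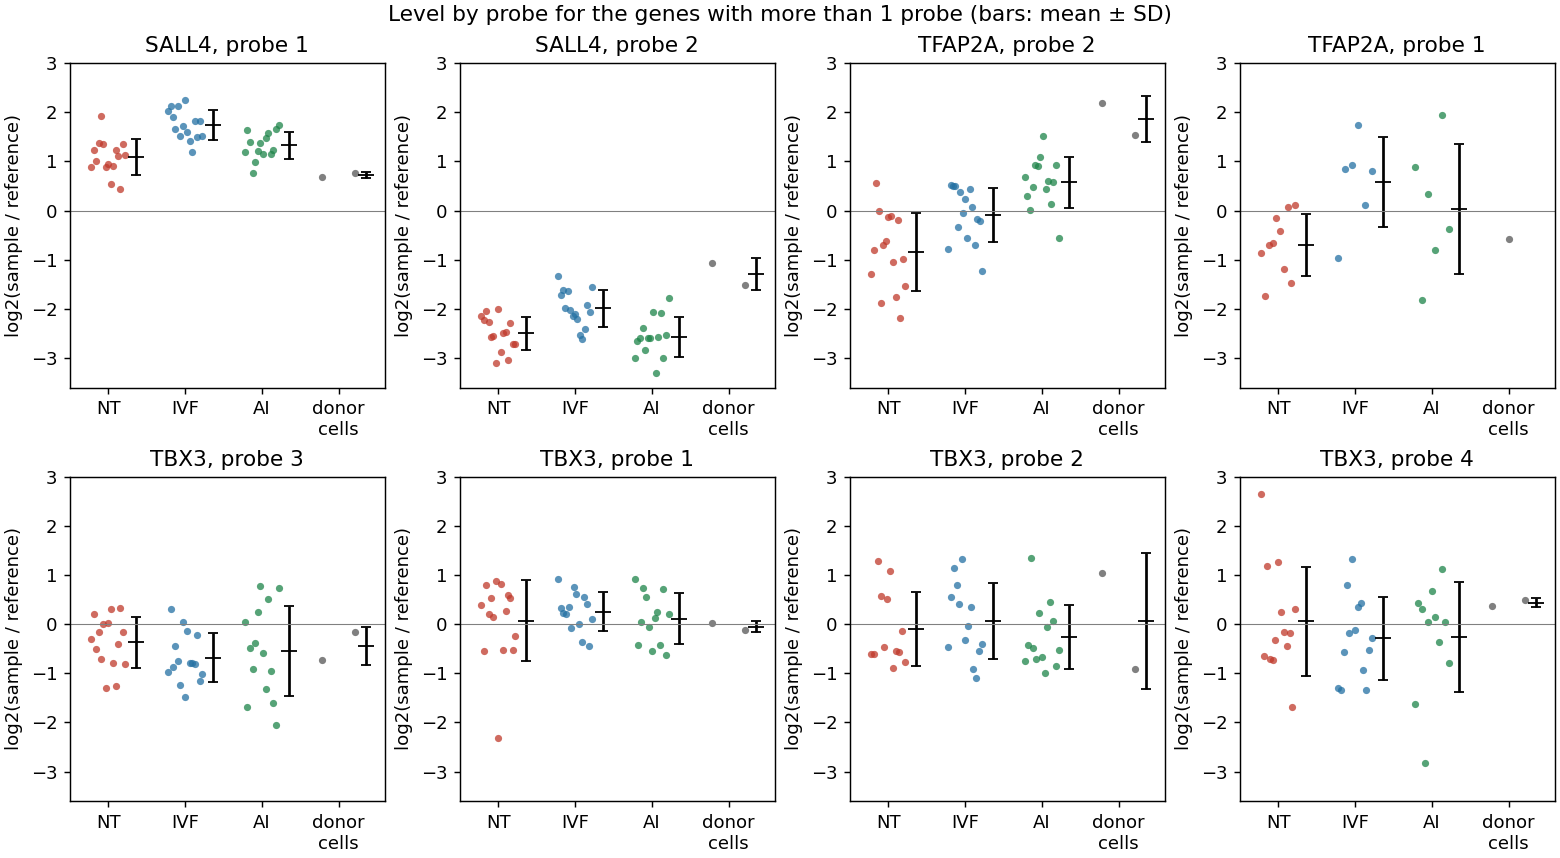
Level of each probe (log2 ratio of sample to reference) for the genes with more than 1 probe, in NT, IVF and AI embryos and donor cells, with mean ± SD. SALL4 probe 1 is higher in most embryos than in donor cells and probe 2 is lower, while TBX3 probe 3 scatters around means of -0.37 in NT, -0.69 in IVF and -0.55 in AI embryos.

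TBX3, a T-box factor, passed the threshold in no comparison. Its level averaged -0.06 ± 0.47 in NT, -0.16 ± 0.38 in IVF and -0.24 ± 0.47 in AI embryos (SD), and the donor cell samples had 0.18 and -0.18. All kinds overlapped. Of its 4 probes, only the third had duplicate spots that correlated well (r = 0.94). The others had r of -0.09, 0.35 and 0.40 over 75, 50 and 46 arrays.

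The third TBX3 probe averaged -0.37 ± 0.52 in NT, -0.69 ± 0.50 in IVF and -0.55 ± 0.92 in AI embryos (SD). On it, NT embryos differed from IVF embryos by 0.32, with a 95% interval from -0.16 to 0.79 (adjusted p = 0.364). The AI embryos ran from -2.05 to 0.78, which covered the full range of the other kinds.

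Between NT and IVF embryos 4 of 6 factors passed the threshold, STAT3 and KLF4 higher and TFAP2A and SALL4 lower, against 24.2% of all genes. Of 9 genes listed as inner cell mass markers 2 were tested, and both were higher in NT than in IVF embryos, H2AZ1 by 1.01 ± 0.09 and SPIC by 1.05 ± 0.35. H2AZ1 encodes a histone variant that is not confined to the inner cell mass. H2AZ1 fell by 1.04 ± 0.09 in IVF against AI embryos. The mean level of these 2 genes ran from 1.43 to 2.82 in NT, from -0.09 to 2.00 in IVF and from 0.45 to 2.90 in AI embryos. It does not measure the share of inner cell mass cells, and the part of these genes in the differences of the factors was not tested. Between IVF and AI embryos 4 of 6 factors passed, SALL4 higher and TFAP2A, MEIS2 and STAT3 lower, against 29.5%. Against donor cells 4 of 6 were lower in NT embryos (35.4% of all genes passed in either direction), 4 of 6 in IVF embryos (34.3%) and 3 of 6 in AI embryos (37%). With NT embryos labelled 2_ only, neither STAT3 (-0.95, adjusted p = 0.0820) nor KLF4 (-0.84, adjusted p = 0.114) passed against donor cells, and without centring the arrays neither did (adjusted p = 0.106 and 0.192). No factor passed as higher in embryos than in donor cells. The plot of differences shows the intervals, which are wider against donor cells.

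Directions are relative to the median spot. Without that centring the median of all genes was shifted by 0.44 between NT and AI embryos, by 0.38 between NT and IVF embryos and by 0.06 between IVF and AI embryos. Against these shifts, KLF4 and TBX3 were then higher in NT than in AI embryos by 0.70 and 0.59 (adjusted p = 0.0100 and 0.00941), and TBX3 was 0.48 above IVF embryos (adjusted p = 0.0293). The differences of TFAP2A and SALL4 between NT and IVF embryos shrank to -0.37 and -0.20 and did not pass (adjusted p = 0.170 and 0.332). Those of TFAP2A and MEIS2 in NT against AI embryos and of STAT3 and KLF4 in NT against IVF embryos passed on both scales. So did those of TFAP2A, MEIS2, SALL4 and STAT3 in IVF against AI embryos.

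**Figure D3:**
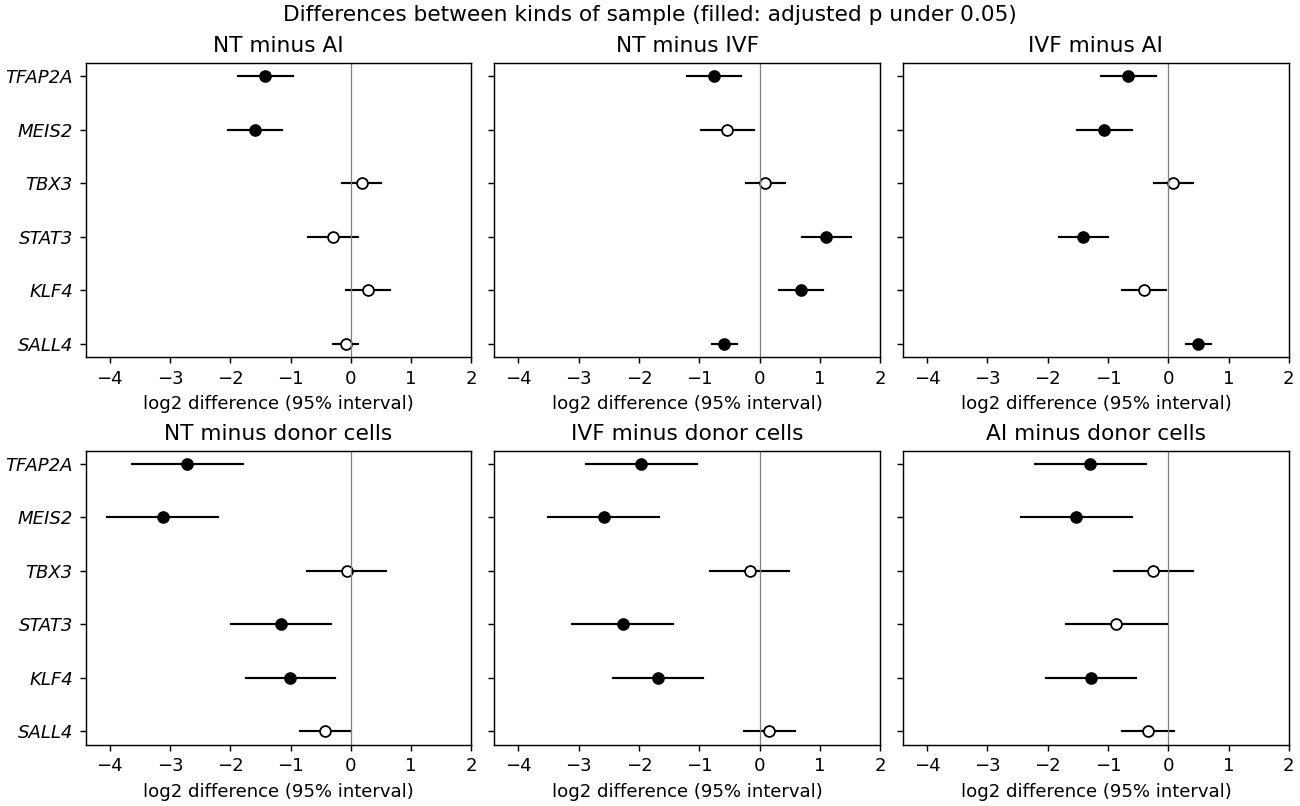
Difference in log2 level of each gene in the 6 comparisons, with its 95% interval from the limma fit. Filled points have an adjusted p under 0.05: TFAP2A and MEIS2 in NT minus AI embryos, and 4 of 6 genes in each of NT minus IVF and IVF minus AI embryos.

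Placed in order, each neighbouring kind differed past the threshold for TFAP2A in the main fit, from NT through IVF and AI embryos to donor cells. Each of these steps missed the threshold under some alternatives given above, and the untested TFAP2A probe did not show this order. Every order given here would run backwards with the other direction of the ratio. For MEIS2 the order was NT, IVF, AI and donor cells, and NT and IVF embryos were past the threshold only under the alternatives given above. For STAT3 the order was IVF, NT, AI and donor cells, where only IVF and NT embryos were separated among neighbours. For KLF4 it was IVF, AI, NT and donor cells, where only NT embryos and donor cells were. SALL4, whose probes disagreed on donor cells, and TBX3 were not ordered.

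The 2 arrays of an embryo showed how far its deviation from the mean of its kind was repeatable. Over 44 embryos the deviations on the 2 arrays correlated with r = 0.85 for STAT3, 0.84 for TFAP2A and 0.64 for KLF4. They correlated with r = 0.30 for MEIS2, 0.30 for TBX3 and 0.09 for SALL4, where r was -0.01 in NT, 0.40 in IVF and -0.07 in AI embryos. TFAP2A had an SD of 0.79 in NT embryos, larger than in 91.0% of genes, and r = 0.89 there. MEIS2 in AI embryos, with its larger SD, had r = 0.31. The mean of the 2 SALL4 probes had SDs of 0.25 to 0.30, larger than in 11.1% to 16.2% of genes, and the probes by themselves had SDs of 0.27 to 0.40.

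**Figure D4:**
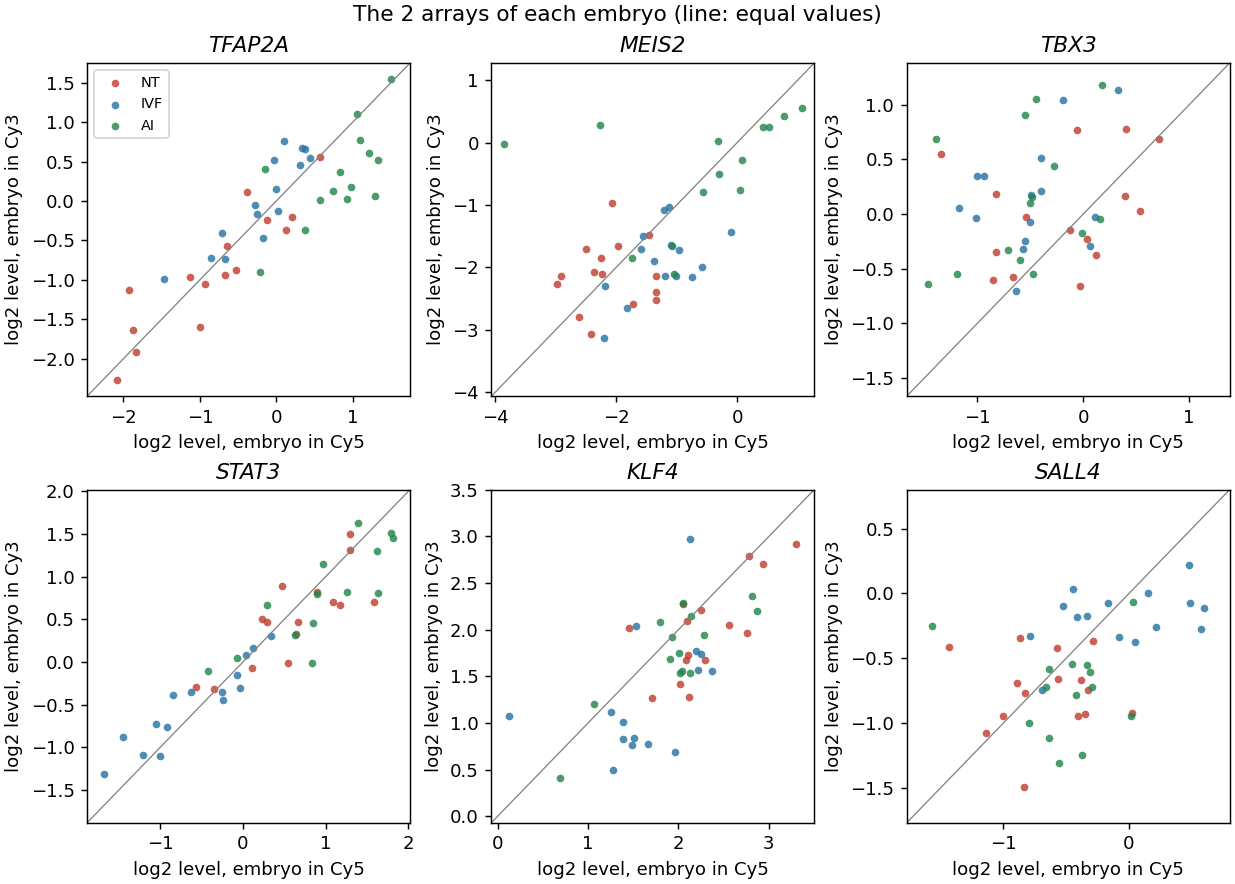
Level of each gene in each embryo on the array with the embryo in Cy5 (x axis, log2) and in Cy3 (y axis, log2), coloured by kind. Points of TFAP2A and STAT3 follow the line of equal values, with r of deviations of 0.84 and 0.85, and those of SALL4 have r = 0.09 over all kinds, with 0.40 in IVF embryos.

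Within kinds no pair of the 6 factors passed a test of correlation. Deviations of MEIS2, TBX3 and SALL4 repeated weakly between the 2 arrays (r = 0.30, 0.30 and 0.09). For pairs that include any of these genes the test had little power, so that its outcome says little about them. For 15 pairs, r of the deviations over 44 embryos ran from -0.24 for TBX3 and KLF4 to 0.26 for STAT3 and KLF4, and Spearman's rho from -0.20 to 0.25. None passed a permutation test within kinds after Benjamini-Hochberg adjustment (lowest adjusted p = 0.562 for r and 0.532 for rho), and 0 had an unadjusted p under 0.05. Without the 2 embryos farthest from the median of the first gene, r ran from -0.28 to 0.24. With the 2 genes read from different arrays, which removes what an array shares, it ran from -0.20 to 0.25, and within a single kind from -0.45 to 0.50.

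The genes most alike in level over all 44 embryos, differences between kinds included, were KDM2B (r = 0.83), PPP1R16A (r = 0.79) and FN1 (r = 0.75) for STAT3. KDM2B encodes a histone demethylase and FN1 fibronectin. For SALL4 they were the sorting nexin gene SNX5 (r = 0.83), RAB32 (r = 0.68) and AP2M1 (r = 0.67). For MEIS2 they were RPLP1 (r = 0.68), CASP6 (r = 0.64) and CTSH (r = 0.64), and for TFAP2A the ribonuclease inhibitor gene RNH1 (r = 0.67), TFDP1 (r = 0.61) and PAG8 (r = 0.59). KLF4 was followed by LOC515169 (r = 0.62), PPM1K (r = 0.61) and PARG (r = 0.60), and TBX3 by SEC16A (r = 0.55), DIAPH1 (r = 0.51) and RPRD2 (r = 0.46). These are descriptions of 44 embryos that share arrays' scaling and kinds.

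Of 35 other transcription factors of the trophectoderm 21 were tested. Against donor cells, TFAP2C, the close relative of TFAP2A, was higher by 1.86 ± 0.32 in NT, 2.02 ± 0.32 in IVF and 2.05 ± 0.32 in AI embryos (adjusted p = 4.83e-06, 1.02e-06 and 6.89e-07). TFAP2A was lower there on its tested probe. Between the kinds of embryo TFAP2C passed in no comparison, with differences of -0.20, -0.17 and -0.03 for NT minus AI, NT minus IVF and IVF minus AI. Among these 21 factors 4 were higher and 2 lower in NT embryos than in donor cells, 4 higher and 3 lower in IVF embryos, and 5 higher and 1 lower in AI embryos, in comparisons where 35.4%, 34.3% and 37% of all genes passed. WWTR1, a coactivator of the Hippo pathway, and GATA2 were higher in all kinds, by 1.34 to 2.26 and by 0.99 to 1.15.

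Between NT and AI embryos 1 of the 21 was lower, the inhibitor of differentiation ID2 (-0.46 ± 0.14, adjusted p = 0.0358), and none higher, where 8.07% of all genes passed. Between NT and IVF embryos 4 were higher and 1 lower, a share of the list close to the 24.2% of all genes. WWTR1 was higher by 0.93 ± 0.14, ID2 by 0.57 ± 0.14, GRHL1 by 0.55 ± 0.16 and HAND1 by 0.46 ± 0.17, and TEAD4, the DNA-binding partner of Hippo coactivators, was lower by a difference of -0.37 ± 0.11. Between IVF and AI embryos 3 were higher (GATA3 0.56 ± 0.17, TEAD3 0.36 ± 0.10 and TEAD4 0.28 ± 0.11) and 4 lower (ID2 -1.03 ± 0.14, WWTR1 -0.62 ± 0.15, GRHL1 -0.45 ± 0.16 and CEBPB -0.43 ± 0.16), where 29.5% of all genes passed. The median difference of the 21 was 0.02, -0.08 and 0.11 in these comparisons, against 0.03, 0.00 and 0.03 over all genes. Of 14 trophectoderm markers 1 was higher and 5 lower in NT than in IVF embryos, where 24.2% of all genes passed.

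Of 35 genes listed as other pluripotency factors only 5 were tested. TCF3, a helix-loop-helix factor, and TCF7L1, an HMG-box factor of Wnt signalling, were higher in NT embryos than after IVF (0.44 ± 0.09 and 0.32 ± 0.10) and lower in IVF than in AI embryos (-0.39 ± 0.10 and -0.27 ± 0.10), 2 of 5 in comparisons where 24.2% and 29.5% of all genes passed. The place of TCF3 among pluripotency factors is not settled, so that this count describes the list and not pluripotency factors as such. KLF2, THAP11 and ZNF281 passed in no comparison between embryos, with differences from -0.31 to 0.26. Of the homeobox and T-box partners 2 of 27 were tested and none passed.

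Of 37 genes on the path that leads from LIF and interleukin 6 to STAT3, 18 were tested. Between NT and AI embryos 2 were higher, the adaptor GRB2 (0.51 ± 0.15) and the phosphatase PTPN6 (0.37 ± 0.10), where 8.07% of all genes passed. Between NT and IVF embryos 3 were higher, GRB2 (0.50 ± 0.15), JUNB (0.38 ± 0.12) and PIAS1 (0.56 ± 0.18), and 1 lower, the phosphatase PTPN1 (-0.63 ± 0.13), so that 4 of 18 passed against 24.2% of all genes. Between IVF and AI embryos PTPN1 (0.57 ± 0.13), PTPN6 (0.40 ± 0.10) and MCL1 (0.37 ± 0.14) were higher and JUNB, an immediate early gene, was lower (-0.52 ± 0.12), 4 of 18 against 29.5%. Against donor cells 3 of the 18 were higher and 1 lower in NT embryos, 3 higher and 2 lower in IVF embryos, and 3 higher and none lower in AI embryos, where 35.4%, 34.3% and 37% of all genes passed. Higher in all kinds were GRB2 (1.83, 1.33 and 1.32 in NT, IVF and AI embryos), PTPN1 (0.91, 1.54 and 0.97) and the phosphatase PTPN11 (1.13, 0.96 and 0.99). The kinase JAK1 was lower in NT and IVF embryos (-1.32 ± 0.49 and -1.75 ± 0.49), and JUNB in IVF embryos (-0.62 ± 0.24).

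Of 25 cofactors of AP-2 proteins and SALL4, 10 were tested. CHD4, the remodelling subunit of the NuRD repressor complex that SALL4 recruits, was higher than in AI embryos by 0.67 ± 0.12 in NT and by 0.85 ± 0.12 in IVF embryos (adjusted p = 2e-04 and 4.67e-07). HDAC1, the deacetylase of that complex, was higher in NT embryos than in IVF embryos (0.40 ± 0.09) and lower in IVF than in AI embryos (-0.45 ± 0.09), and MBD3 was lower in NT than in IVF embryos (-0.50 ± 0.18). That made 1 of 10 past the threshold between NT and AI embryos, where 8.07% of all genes passed, and 2 of 10 in the other pairs of embryo kinds (24.2% and 29.5%). Against donor cells HDAC1 was higher by 2.19 to 2.64 and MTA3 by 2.11 to 2.46 over the 3 kinds. CHD4 went the other way in AI embryos (-0.93 ± 0.24, adjusted p = 0.00182) and did not pass in NT or IVF embryos. CITED1 was higher by 1.37 to 1.89 and CITED2, a coactivator of AP-2, had differences of -1.28 to -1.08.

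The label groups within kinds were compared as well. Between NT embryos labelled 2_ and 3_ none of the 6 factors passed, nor did any of 4398 genes (0%) by limma, with 351 genes and 0 factors at an unadjusted p under 0.05. Between the 3 AI embryos labelled H and the other 11, none of the 6 passed, and 0.933% of genes did.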

How the data were processed

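Per the file header and labels, the deposited table held log2 ratios of the dye channels for 16416 spots on 92 arrays, and the authors' background correction, normalisation and ratio direction are not given in the sources used here. No intensities were held. Adjacent spots were paired by position into 8208 probes. In all 5693 pairs with an annotation it was the same for both spots, and the other pairs had none to compare. The 2657 cells with a fill value of 16.61 were set to missing. Array medians ran from -2.14 to 0.862, so each array was centred on its median. Where Cy3 carried the sample, the sign was reversed. Duplicate spots, then the 2 arrays of a sample, then probes of the same single symbol were averaged. Tested probes were present in no less than 50% of NT, of IVF and of AI embryos and in both donor cell samples (7992 of 8208). All 46 samples entered a model of group means in limma 3.58.1 (R 4.3.3) with eBayes, 2-sided tests and Benjamini-Hochberg adjustment over all genes, threshold 0.05. Correlations used 100000 permutations within kinds (numpy 2.4.6). Precision is limited by the number of embryos and, against donor cells, by the 2 donor cell samples. The fit was tested on simulated data.

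The 6 genes and 11 gene lists were chosen with earlier results of these data known. Named genes were the 6 factors, the 3 genes of highest r with each and, per list and comparison, up to 4 genes of smallest p past the threshold. All tested trophectoderm and pluripotency factors could be named. A few genes beyond these were named as well, such as CITED1 in AI embryos and JUNB in IVF embryos against donor cells. Alternatives were the scaling of arrays, single dyes, 1 probe per gene, filters, subsets of samples, left-out samples and a model of all arrays. Alternatives chosen after seeing the data kept values from single arrays, left out probes with poor duplicate spots, and read the genes of a pair from different arrays.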

Additional observations from a re-analysis of the deposited data

Results flagged for a closer look

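Among the 8 NT embryos labelled 2_, the lowest level of SALL4 was -1.11 and stood apart from the others, which ran from -0.64 to -0.32, by Dixon's criterion. An NT embryo labelled 3_ was lower still, at -1.16. The flagged embryo, 2_9, was the lowest of its label group on the second SALL4 probe (-3.10). On the first it was not (0.89, against 0.88 in embryo 2_1). This was the only such case in 12 combinations of gene and label, and chance alone gives about 1 in 20 for each combination.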

How the results depend on the processing

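The counts of factors past the threshold stayed within 1.5 times under most alternatives. As deposited, without centring, 4 factors passed between NT and AI embryos in place of 2, and 2 between NT embryos and donor cells in place of 4. Between NT embryos and donor cells 2 also passed with only the NT embryos labelled 2_ and with the sample in Cy3 only. With Cy3 only, 1 passed between AI embryos and donor cells. Leaving out each sample in turn, donor cell samples included, gave 2 to 4 factors between NT embryos and donor cells and 0 to 3 between AI embryos and donor cells, with the fewest when a donor cell sample was left out. Between NT and AI embryos each of these fits gave 2. With 1 probe per gene, SALL4 was higher in AI embryos than in donor cells by 0.60, the reverse of the mean of both probes. As deposited, 1 of 15 pairs of factors was correlated (KLF4 and SALL4, r = 0.55, adjusted p = 0.00405). Causes were not tested.

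AI and IVF embryos share 7 numbers. Deviations of same-numbered embryos correlated with r from -0.06 to 0.09, and 1 of 7 pairs was best with its own number, so that the numbers were not taken as pairs. With a replicate block over these embryos 2 factors passed between IVF and AI embryos and 451 genes in all, against 690 genes without the block.

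Without centring 1997 genes passed between NT and AI embryos (1978 higher, 19 lower) in place of 355, 1755 between NT and IVF embryos (1710 higher, 45 lower) in place of 1066, and 698 between IVF and AI embryos in place of 1299. With 1 dye 551 (Cy5) and 213 (Cy3) passed between NT and AI embryos, with the NT embryos labelled 2_ or 3_ alone 167 and 178, and between NT and IVF embryos 697 with those labelled 3_. Without 1 donor cell sample 966 to 1084 genes passed against donor cells.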

Other observations

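Of 7 tested markers of the primitive endoderm, the layer that lines the inner cell mass, 1 was higher and 1 lower in NT than in AI embryos, where 8.07% of all genes passed. The laminin chain gene LAMB1 was higher by 0.66 ± 0.17 (adjusted p = 0.00752) and the collagen gene COL4A1 fell by 0.63 ± 0.14 (adjusted p = 0.00278). Between NT and IVF embryos 1 was higher, FN1 (0.79 ± 0.15, adjusted p = 7.17e-05), and 1 lower, LAMB1 (-0.44 ± 0.16, adjusted p = 0.0434), where 24.2% of all genes passed. Between IVF and AI embryos, where 29.5% of all genes passed, LAMB1 was higher by 1.10 ± 0.17, while the adaptor gene DAB2 and the fibronectin gene FN1 had differences of -1.43 ± 0.26 and -0.80 ± 0.15 (adjusted p = 3.96e-05 and 5.09e-05). GATA6, a defining transcription factor of that layer, had differences of -0.12, -0.12 and 0.00 for NT minus AI, NT minus IVF and IVF minus AI embryos, none past the threshold.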
